A study of Mus musculus with 2 samples.

Results

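The transcripts described here encode the machinery that copies DNA in S phase, together with enzymes that supply its building blocks and factors that start the phase. They were taken by name from a fixed list of 46 genes, all of which were measured among the 34820 gene names on the arrays. Where a gene had more than 1 probe, the brightest over both arrays and channels stood for it, since the list was served by 61 probes in all. Membership went by gene name, and brightness chose among the probes of a gene.

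Replication begins when the origin recognition complex, CDC6 and CDT1 load rings of the MCM2-7 helicase onto DNA in G1. Kinases of S phase then recruit CDC45 and the GINS complex to make the helicase active, and DNA polymerases alpha, delta and epsilon copy both strands behind it. Many of the genes are targets of E2F transcription factors, and in the epidermis their transcripts are typical of the dividing basal layer and of the hair matrix.

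The measurements are 2-colour Agilent arrays on epidermis of FVB/N mice at postnatal day 4.5, after 12 h of doxycycline (Dox) in both pups of a littermate pair, which the methods describe as matched for sex. One pup carried K14-rtTA, the other carried K14-rtTA;TRE-Sox11-FLAG, and there were 2 pairs with 1 array each. The keratin 14 promoter drives the doxycycline-dependent activator rtTA, so the FLAG-tagged SOX11 transgene is switched on in keratin 14 positive keratinocytes, while the RNA is that of the whole epidermal preparation. Control RNA was labelled with Cy3 and SOX11 RNA with Cy5 on both arrays, according to the labels. A log2 ratio below 0 therefore means a dimmer signal in SOX11-induced epidermis, but for any one probe the dye and the genotype cannot be told apart. With bulk tissue, fewer cells of a type and less RNA per cell cannot be told apart either.

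Between 37.5% and 42.6% of the 59305 spots other than controls were well above background in a channel. Neither Sox11 probe was well above background in any of the 4 samples, so the transgene label could not be checked with them, and their place relative to the transgene was not analysed here. All 7 basal markers (Krt5, Krt14, Krt15, Col17a1, Itga6, Itgb4 and Trp63) and all 6 suprabasal markers (Krt1, Krt10, Krt77, Lor, Ivl and Dsg1a) were above background. The 2 control samples stood apart in hair follicle genes, since the mean log2 brightness of 14 hair matrix and shaft genes was 10.66 in the control of pair 1 and 13.18 in that of pair 2, against 12.45 and 12.91 in the SOX11 samples. For this reason the log2 ratios of each member are given for both pairs.

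Replication transcripts were, as a group, slightly dimmer in SOX11-induced epidermis with loess centring. Of the 46, 14 had a mean log2 ratio above 0, and 2 of these passed an adjusted p under 0.05 (limma). The median log2 ratio of the 46 members was -0.23 (-0.11 in pair 1 and -0.28 in pair 2), and that of the 40 members above background was -0.29. For the 16341 names above background the median was 0.03. Thymidine kinase (Tk1), the catalytic subunits of polymerases epsilon and delta (Pole and Pold1) and a clamp loader subunit (Rfc5) fell to between 0.551 and 0.629 of the control. The GINS subunit Gins1 and the chromatin assembly subunit Chaf1b rose by 1.82-fold and 1.70-fold.

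Of the members, 26 were lower in both pairs, 6 were higher in both and 14 had opposite signs. Names above background were lower in both pairs in 34.2% and higher in both in 40.2%, against 24 and 6 of the 40 members above background. At an adjusted p under 0.05 by the moderated test of limma, 4 members were lower and 2 higher. Over names above background, this test called 3.52% lower and 6.93% higher, and over all names it called 1.78% lower and 3.52% higher. The 4 lower members thus made up 10% of the 40 above background and the 2 higher ones 5%. No member was past a log2 ratio of 1.5, which 1.31% of the names above background passed together with the adjusted p. At an unadjusted p under 0.05 there were 16 lower and 4 higher members. Among the 40 above background these were 15 and 4, against 2139 and 3050 of the 16341 names above background.

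The direction of many members depends on how the arrays are centred. The values above are relative to a loess curve fitted through the log2 ratios against brightness. With each array centred on its median instead, the median of names above background moved from 0.03 to 0.52, the median of the members was 0.11, and 56.2% of those names passed the test as higher and 1.34% as lower. Of the 32 members with a mean below 0 with loess, 21 were then above 0, the dim probe of Ccne2 went the other way, and 24 of the 46 kept their sign. Relative to the names above background, the median of the members was lower under both, by 0.26 with loess and by 0.42 with median centring, and 34 and 33 of the 46 members, respectively, lay below the median of those names. These 46 include the 6 not above background. With loess the 40 above background were lower by 0.32, and 30 of them lay below that median. With median centring the median of all probes was -0.04, and the weight of the 6 dim members in the 0.42 was not tested. Tk1, Rfc5, Pold1 and Pole kept negative means with median centring (-0.28, -0.12, -0.12 and -0.10) but no longer passed the test. Gins1 and Chaf1b were higher under both, at 1.42 and 1.41 with median centring.

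**Figure D1:**
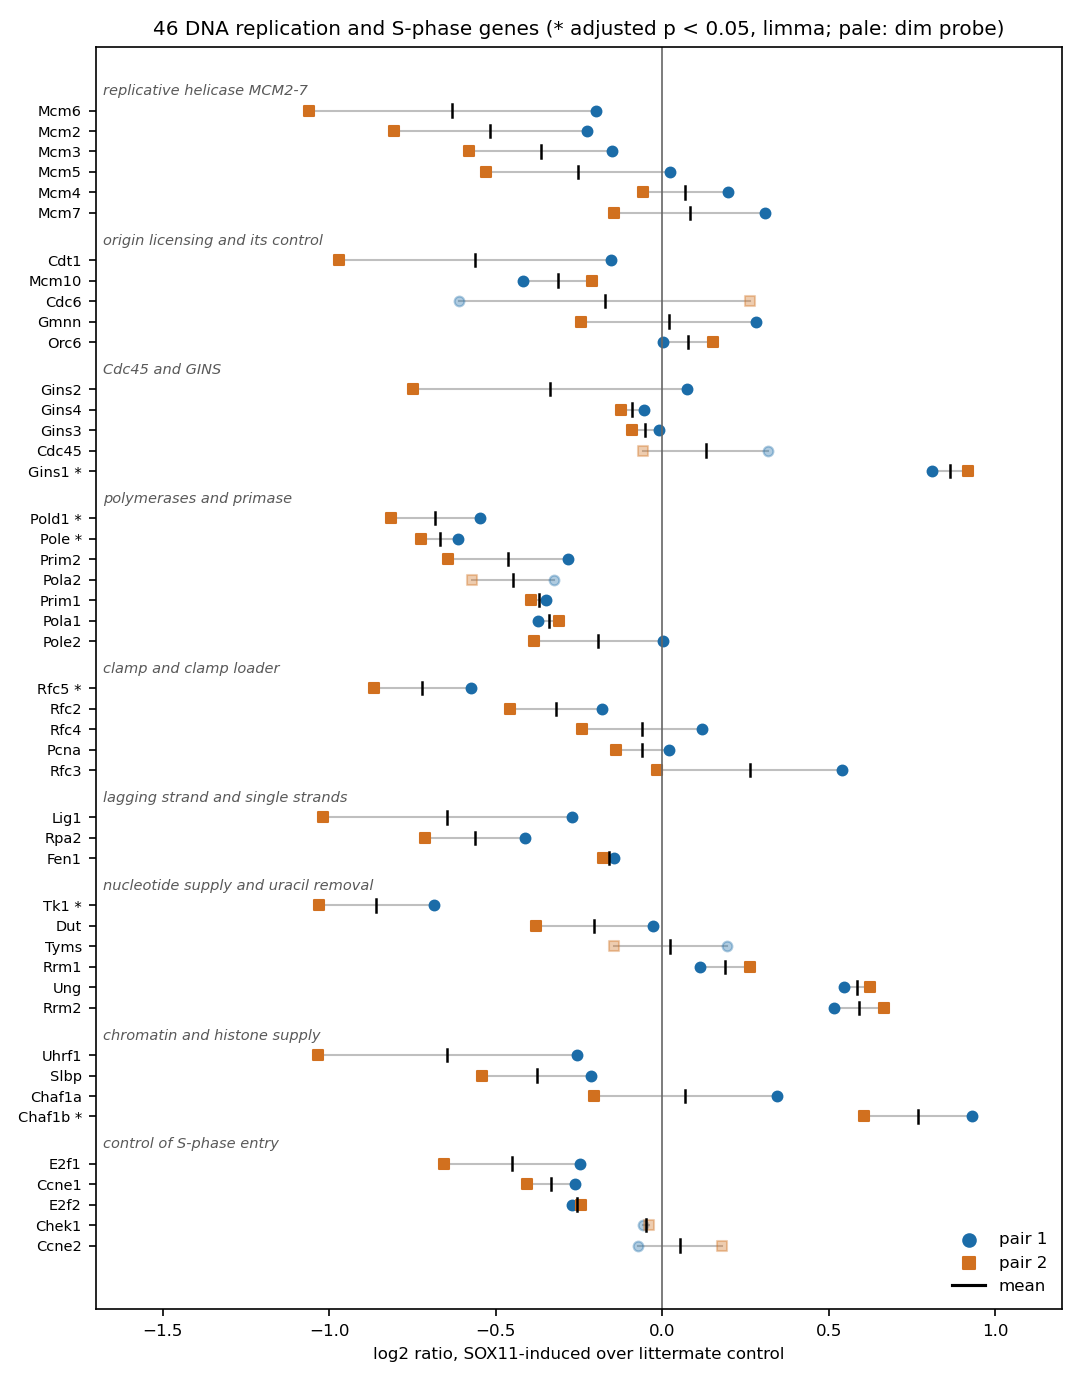
Log2 ratio of SOX11-induced over control epidermis (x axis) for each of the 46 members, grouped by role, with pair 1 as circles, pair 2 as squares and their mean as a black bar; pale symbols mark the 6 members not above background on both arrays and stars the 6 members with an adjusted p under 0.05. The pair 2 square lies left of the pair 1 circle in 35 members, and the 6 MCM2-7 genes all show this order.

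The rings of the replicative helicase are built from MCM2 to MCM7, which work as 1 hexamer. None of the 6 passed the test, and their median was -0.06 in pair 1 against -0.56 in pair 2 as a log2 ratio. With median centring, 5 of the 6 had means above 0 and Mcm2 was at -0.02. Mcm6 was the brightest of them, with a probe on mm9 chr1:130228178-130228237, minus strand. Its log2 brightness was 11.92 in control and 11.72 in SOX11 epidermis of pair 1, and 11.66 and 10.60 in pair 2. The SOX11 sample of pair 2 was thus the low one and the other 3 samples lay close together, which gave a mean log2 ratio of -0.63 ± 0.611 (SD, n = 2) with an adjusted p of 0.122. Mcm2 showed the same order with log2 ratios of -0.23 and -0.81, and so did Mcm3 with -0.15 and -0.58. Mcm5 was at 0.02 in pair 1 and -0.53 in pair 2. Mcm4 and Mcm7 were above 0 in pair 1 (0.20 and 0.31) and slightly below it in pair 2 (-0.06 and -0.14).

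The loaders and brakes of the licensing step had no member past the test. Cdt1, which brings the helicase rings to origins, was close to the control in pair 1 (-0.16) and well below it in pair 2 (-0.97). For Gmnn, whose protein geminin inhibits CDT1, the ratios were 0.28 and -0.24, on a dim probe that was above background in each channel on 1 array. Orc6, a subunit of the origin recognition complex, was at 0.00 and 0.15. Mcm10, which helps to activate the loaded helicase, was at -0.42 and -0.21. Cdc6 was above background in the control channel of 1 array alone, with values of -0.61 and 0.26.

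CDC45 and the 4 GINS proteins turn the loaded ring into a moving helicase, and here the members moved unequally. Gins1, probed on mm9 chr2:150756868-150756927, had a log2 brightness of 8.66 in control and 9.47 in SOX11 epidermis of pair 1, and of 8.13 and 9.05 in pair 2. Both SOX11 samples were brighter than both controls, and the mean log2 ratio was 0.86 ± 0.077 (SD, n = 2) with a 95% interval of 0.53 to 1.2 and an adjusted p of 0.0139. Gins3, the brightest of this role, barely differed within pairs. It read 10.42 and 10.41 in control and SOX11 epidermis of pair 1 and 10.34 and 10.25 in pair 2, a mean log2 ratio of -0.05 with a 95% interval of -0.39 to 0.29. Gins4 was at -0.05 and -0.13. Gins2 was at 0.08 in pair 1 and -0.75 in pair 2. The 4 proteins form 1 complex, and differences between their transcripts were not tested. Cdc45 was not above background in any channel.

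Of the 7 genes of DNA polymerases and primase, Pole and Pold1 passed the test as lower. With loess, 6 of the 7 were lower in both pairs, while Pole2 was at 0.00 and -0.39, and the median log2 ratio was -0.45 (-0.35 in pair 1 and -0.57 in pair 2). With median centring Pola1, Prim1, Prim2 and Pole2 had means above 0, between 0.011 and 0.24. Pole encodes the catalytic subunit of polymerase epsilon, which copies the leading strand. On mm9 chr5:110766375-110766434 it read 9.55 in control and 8.93 in SOX11 epidermis of pair 1, and 9.11 and 8.39 in pair 2, so that both SOX11 samples lay below both controls. Its mean log2 ratio was -0.67 ± 0.079 (SD, n = 2; adjusted p = 0.0396). With median spot brightness and in the series table the adjusted p was 0.0878 and 0.086, which ends the call. The other 2 Pole probes were not above background, and the mean over all 3 was -0.37.

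Pold1 encodes the catalytic subunit of polymerase delta, which copies the lagging strand. Its log2 brightness was 9.44 and 8.89 in control and SOX11 epidermis of pair 1, and 8.99 and 8.17 in pair 2. The samples of the groups again did not overlap, and the mean log2 ratio was -0.68 ± 0.189 (SD, n = 2; adjusted p = 0.0421). This call too was lost with median spot brightness (adjusted p = 0.0579) and in the series table (0.0563). Prim1, the catalytic primase subunit that lays RNA primers and the brightest probe of this role, had nearly equal ratios of -0.35 and -0.39, yet an adjusted p of 0.195. Its brightness was 10.58 and 10.24 in pair 1 and 9.96 and 9.56 in pair 2, so the SOX11 sample of pair 1 was brighter than the control of pair 2. Pola1, the catalytic subunit of polymerase alpha, was at -0.37 and -0.31, and the primase subunit Prim2 at -0.28 and -0.65. Pola2 (-0.32 and -0.57) was not above background in any channel.

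The sliding clamp PCNA holds polymerases on DNA, and the RFC complex opens it to load it. Pcna itself was at 11.02 and 11.03 in control and SOX11 epidermis of pair 1 and at 10.60 and 10.46 in pair 2. The pairs differed more than the genotypes, and its mean log2 ratio was -0.06 with a 95% interval of -0.40 to 0.28. Rfc5 was the one member of the role that passed the test. It read 10.25 and 9.67 in pair 1 and 9.89 and 9.02 in pair 2 (mm9 chr5:117829243-117829302), with both SOX11 samples below both controls and a mean log2 ratio of -0.72 ± 0.206 (SD, n = 2; adjusted p = 0.0348). With median spot brightness its adjusted p was 0.0517. Among the other loader subunits, Rfc2 was at -0.18 and -0.46, Rfc4 at 0.12 and -0.24, and Rfc3 at 0.54 and -0.02. Rfc1, the large subunit and not a member here, was at -0.50 and -0.66 (adjusted p = 0.0672), and no test compared the subunits.

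Joining and processing of the lagging strand were represented by 3 members, all lower in both pairs with loess, while Fen1 was at 0.43 with median centring. Lig1, the ligase that seals Okazaki fragments, had a log2 brightness of 10.56 in control and 10.29 in SOX11 epidermis of pair 1, and of 10.21 and 9.19 in pair 2. The SOX11 sample of pair 2 stood apart as it did for Mcm6, and the mean of -0.65 ± 0.528 (SD, n = 2) had an adjusted p of 0.0967. Rpa2, which coats single-stranded DNA, was at -0.41 and -0.71 (adjusted p = 0.0803). Fen1, the nuclease that trims the fragments, was at -0.14 and -0.18.

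Nucleotide supply contained members that went in opposite directions. Tk1, which salvages thymidine, had the lowest mean of all 46 with loess. Its log2 brightness was 9.91 in control and 9.22 in SOX11 epidermis of pair 1, and 9.36 and 8.32 in pair 2 (mm9 chr11:117676845-117676904). Both SOX11 samples lay below both controls, and the mean log2 ratio was -0.86 ± 0.246 (SD, n = 2), with a 95% interval of -1.22 to -0.50 and an adjusted p of 0.0187. A second Tk1 probe above background gave -0.38 and -1.21 (adjusted p = 0.0598). Both subunits of ribonucleotide reductase, which makes deoxyribonucleotides, leaned the other way, with Rrm2 at 0.52 and 0.67 (adjusted p = 0.0621) and Rrm1 at 0.11 and 0.26.

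Ung, which removes uracil from DNA, was the brightest probe of this role at 12.99 in control and 13.54 in SOX11 epidermis of pair 1, and 13.10 and 13.72 in pair 2. Both SOX11 samples were brighter than both controls, with a mean log2 ratio of 0.58 ± 0.054 (SD, n = 2; adjusted p = 0.0624). Rrm2 and Ung passed the adjusted threshold when a larger offset of 50 was used in the background correction, or when only probes above background were tested. Dut, which keeps uracil out of the nucleotide pool, was at -0.03 and -0.38. Tyms, the enzyme that makes thymidylate, was above background in the SOX11 channel of 1 array alone and had ratios of 0.19 and -0.15.

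Factors that rebuild chromatin behind the fork also split. CHAF1A and CHAF1B are subunits of chromatin assembly factor 1, which deposits histones on new DNA. Chaf1b, on mm9 chr16:93906219-93906278, read 10.84 in control and 11.77 in SOX11 epidermis of pair 1, and 10.46 and 11.07 in pair 2. Both SOX11 samples were above both controls, and the mean log2 ratio was 0.77 ± 0.227 (SD, n = 2; adjusted p = 0.0285). A second probe that overlaps it gave 0.96 and 0.61, and the other probe was not above background, so that the mean over all 3 was 0.51. Chaf1a was at 0.34 and -0.21. Uhrf1, which carries DNA methylation through replication, was at -0.26 in pair 1 and -1.04 in pair 2 (adjusted p = 0.101). Slbp, the histone mRNA binding protein, was at -0.21 and -0.54.

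Among the regulators of S-phase entry no member passed the test. E2f2, a transcription factor of the E2F family and the brightest of this role, read 12.34 and 12.07 in pair 1 and 12.30 and 12.05 in pair 2. Its pairs were close, with a mean log2 ratio of -0.26 ± 0.019 (SD, n = 2; adjusted p = 0.361). E2f1 was at -0.25 and -0.66, and Ccne1, the cyclin E1 gene that starts the phase, at -0.26 and -0.41. Ccne2 and the checkpoint kinase gene Chek1 were not above background in any channel, with ratios between -0.07 and 0.18.

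The members' log2 ratios were often unequal between the pairs. Their median SD over the 2 pairs was 0.22, also for the 40 above background alone, compared with 0.129 for all names above background, and the log2 ratio was lower in pair 2 than in pair 1 in 35 of the 46 members (32 of the 40 above background). Of the names above background, 49.7% had this order. In 10 members the ratio of pair 2 was lower by more than 0.5, namely Mcm2, Mcm5, Mcm6, Cdt1, Gmnn, Gins2, Rfc3, Lig1, Chaf1a and Uhrf1, and in 1 member (Cdc6) that of pair 1 was. The share of all names with such a difference was not counted. By role, all 6 MCM2-7 genes, all 5 clamp and loader genes and 6 of the 7 polymerase and primase genes had a lower ratio in pair 2 than in pair 1. So did all 3 lagging strand genes, all 4 chromatin genes and 4 of the 5 Cdc45 and GINS genes. This order held in 2 of the 5 licensing genes, 3 of the 6 nucleotide supply genes and 2 of the 5 regulators of S-phase entry. The members' median brightness on the log2 scale was lower in pair 2 than in pair 1 by 0.34 in control epidermis and by 0.63 in SOX11 epidermis. Hair matrix and shaft genes also followed the pair (median 2.17 for the log2 ratio of pair 1, -0.31 for pair 2), but in their case the control samples differed most, by 3.0 against 0.54 between the SOX11 samples. Their part in the members' values was not tested.

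**Figure D2:**
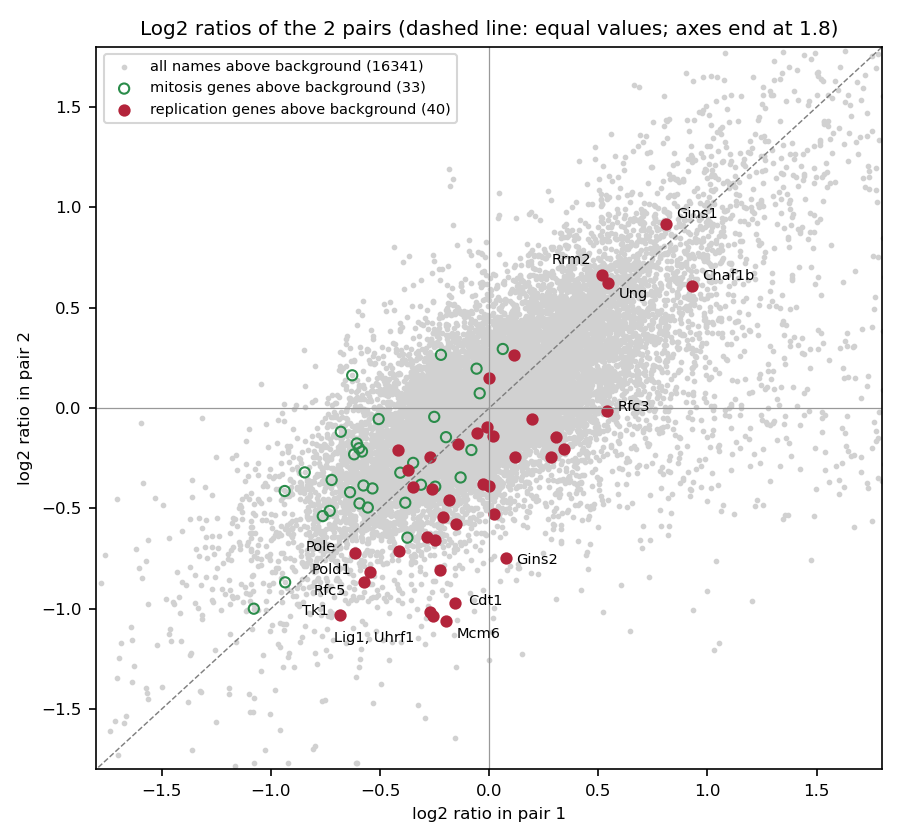
Log2 ratio in pair 1 (x axis) against pair 2 (y axis) for the 16341 names above background (grey), 40 replication genes (red) and 33 mitosis genes (green rings), with a dashed line where the pairs are equal. Replication genes lie mostly below the line and mitosis genes mostly above it; axes end at 1.8, so some grey points are not shown.

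Many replication genes carry E2F sites near their start, and the promoters of a few members show how such letters lie. Promoters of RefSeq (assembly GRCm38.p6, 250 bases before to 50 after each start) were found for 37 of the 46 members. A match to TTTCCCGC, TTTCGCGC, TTTGGCGC or TTTGCCGC on either strand, 4 spellings of an E2F site, was present in 14 of these 37 (37.8%). Of the 27025 symbols with a promoter 2.6% held one, as did 4.47% of the 9148 symbols that were above background on the arrays. CCAAT, the box read by NF-Y, whose letters occur inside none of the E2F spellings, was found on either strand in 20 of 37 members (54.1%) and in 41.1% of all symbols. The following 2 stretches of the MCM genes and 1 of Uhrf1 hold E2F matches, and they are shown for the way the matches lie. Capitals mark both kinds of match, and each stretch is on the gene's own strand.
Mcm6: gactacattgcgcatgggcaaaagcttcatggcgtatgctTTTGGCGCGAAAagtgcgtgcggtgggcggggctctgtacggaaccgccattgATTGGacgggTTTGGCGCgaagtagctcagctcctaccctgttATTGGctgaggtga
Mcm5: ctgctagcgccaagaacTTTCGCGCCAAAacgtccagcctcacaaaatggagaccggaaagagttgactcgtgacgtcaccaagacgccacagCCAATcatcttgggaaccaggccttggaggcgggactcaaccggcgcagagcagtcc
Uhrf1: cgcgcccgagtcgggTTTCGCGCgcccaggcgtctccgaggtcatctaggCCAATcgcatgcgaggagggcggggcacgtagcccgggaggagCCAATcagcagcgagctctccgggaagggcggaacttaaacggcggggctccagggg

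The Mcm6 stretch (GRCm38.p6, chr1:128359706-128359855, minus strand) holds 3 E2F matches, of which the first 2 overlap on opposite strands, and 2 CCAAT boxes on the reverse strand, before and after the last E2F match. In Mcm5 (GRCm38.p6, chr8:75109339-75109488, plus strand) 2 E2F matches overlap in the same way and 1 whole CCAAT box follows within the stretch. Uhrf1 (GRCm38.p6, chr17:56304113-56304262, plus strand) has 1 E2F match and 2 CCAAT boxes before this start, and another listed start of the gene has no match in the same positions. Tk1 (lower) and Chaf1b (higher), which passed the test in opposite directions, have no match of either kind in the whole window, and the 150 bases before their start are shown for contrast.
Tk1: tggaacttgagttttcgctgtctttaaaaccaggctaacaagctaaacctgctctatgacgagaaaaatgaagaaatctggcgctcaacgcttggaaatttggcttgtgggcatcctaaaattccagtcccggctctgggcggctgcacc
Chaf1b: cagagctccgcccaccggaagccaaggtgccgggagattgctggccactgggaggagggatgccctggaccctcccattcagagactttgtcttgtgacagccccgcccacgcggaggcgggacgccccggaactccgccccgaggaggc

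The Tk1 stretch lies at GRCm38.p6 chr11:117826015-117826164 on the minus strand and that of Chaf1b at chr16:93883751-93883900 on the plus strand. Members with and without an E2F match overlapped in their ratios. The 14 with a match had medians of -0.18 in pair 1 and -0.46 in pair 2 (log2 ratio), with 9 lower in both pairs, and the 23 without one had -0.06 and -0.21, with 13 lower in both. A lower ratio in pair 2 than in pair 1 was found in 11 of the 14 (78.6%) and in 17 of the 23 (73.9%). No test of this difference was made. An E2F match was held by 9 of the 22 members lower in both pairs (40.9%) and by 5 of the other 15 (33.3%). A match is a run of letters and not a shown site of binding, and a promoter without one says nothing about E2F.

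Other genes of DNA replication, form a list of 66 that does not overlap the members. They are given with loess alone. Their median log2 ratio was -0.16 (-0.15 in pair 1 and -0.13 in pair 2), with 42 lower in both pairs and 19 higher in both. Of the 55 above background, 36 were lower in both pairs (65.5%), against 34.2% of names above background. The test called 5 lower (7.58%) and 3 higher (4.55%). These made up 9.09% and 5.45% of the 55, against 3.52% and 6.93% of names above background. The lower ones were Ccna2, which encodes the S-phase cyclin A2 (-0.93), the chromatin ATPase gene Atad2 (-0.80), Fbxo5, an inhibitor of the anaphase-promoting complex (-0.73), the histone chaperone gene Asf1b (-0.69) and Chtf18, part of an alternative clamp loader (-0.68). The higher ones were the topoisomerase gene Top1 (1.11), the phosphatase gene Cdc25a, which releases S-phase kinases (1.01), and Tfdp2, a partner of E2F proteins (0.66). A lower ratio in pair 2 than in pair 1 was seen in 38 of the 66, compared with 35 of the 46 members.

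Genes of mitosis, a list of 36 with Mki67, Birc5 and Plk1 among them, were compared because dividing cells express them in the phase that follows. They are given with loess alone and were lower in both pairs in 29 of 36, with a median of -0.40. Of the 33 above background 28 were (84.8%), against 34.2% of names above background. The test called 3 lower (9.09% of those 33, against 3.52% of names above background). These were Birc5, which encodes survivin (-1.04), the proliferation marker Mki67 (-0.90) and the cytokinesis gene Anln (-0.65). In contrast to the members, the median of the 36 was lower in pair 1 (-0.52) than in pair 2 (-0.32), and 7 of 36 had a lower ratio in pair 2. Since both lists come from the same 2 pairs, this describes these arrays and no test was made of it.

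**Figure D3:**
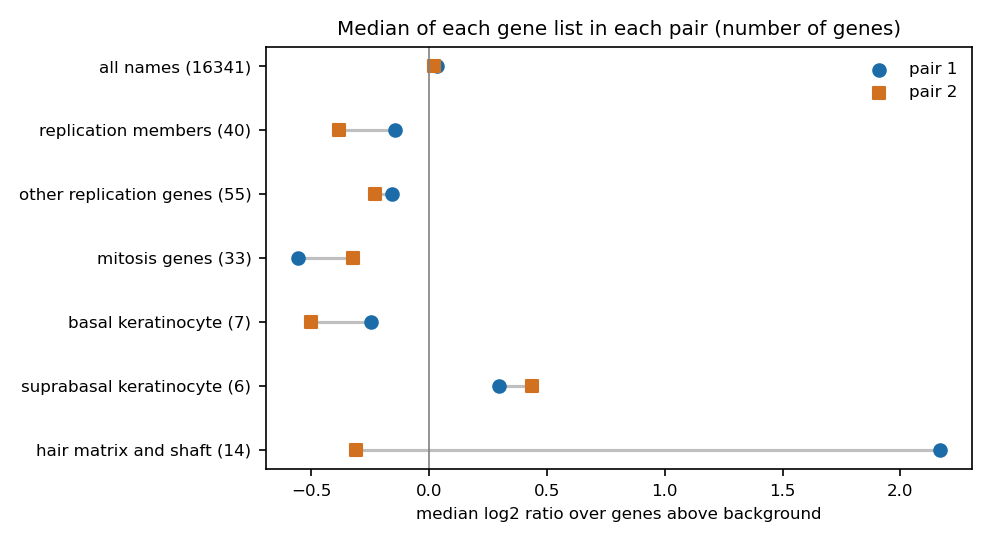
Median log2 ratio (x axis) in pair 1 (circles) and pair 2 (squares) of the genes above background in 7 lists, with the number of genes after each name. The median of the members is lower in pair 2 and that of the mitosis genes is lower in pair 1. The basal median is lower in pair 2 than in pair 1, although 3 of its 7 genes have this order, and the hair genes change sign between the pairs.

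Markers of cell layers and other cell types are described next, with loess alone. The mean log2 brightness of the 7 basal markers was 13.71 and 13.42 in the controls of pairs 1 and 2, compared with 13.21 and 12.91 in SOX11 epidermis, and Krt15 (-1.03) and Col17a1 (-1.10) passed the test as lower. As a log2 ratio, their median was -0.25 for pair 1 and -0.50 for pair 2. Yet 3 of the 7 had a lower ratio in pair 2 than in pair 1, and the median difference between the pairs was 0.09. The part of basal cells in the members' values was not tested. Suprabasal markers had a median of 0.29 in pair 1 and 0.44 in pair 2, with mean log2 brightness of 14.42 and 14.02 in controls and 14.39 and 14.36 in SOX11 epidermis. None of the 6 passed as higher, and the keratin gene Krt77 passed as lower (-1.08 and -0.54, adjusted p = 0.0337). All 6 fibroblast markers had a median of -0.10 in pair 1 and 0.50 in pair 2, and the 4 above background had -0.17 and 0.84. Among them Dcn, which encodes decorin, passed as lower (-0.97 and -0.62, adjusted p = 0.026). The 6 melanocyte markers, all above background, had medians of 0.56 and 0.02. All 6 had a lower ratio in pair 2 than in pair 1, against 49.7% of names above background. Medians over all 7 leukocyte markers were -0.27 and -0.01, and over the 6 above background -0.30 and -0.08. Those over all 3 endothelial markers were 0.12 and -0.07, and over the 2 above background -0.02 and -0.11. Lum, Pdgfra, Lyz2 and Cdh5 were not above background. The mean log2 brightness of the leukocyte markers was 9.40 and 8.37 in the controls of pairs 1 and 2 and 9.16 and 8.32 in SOX11 epidermis, so it followed the pair, and the part of these cell types in the members' values was not tested.

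**Figure D4:**
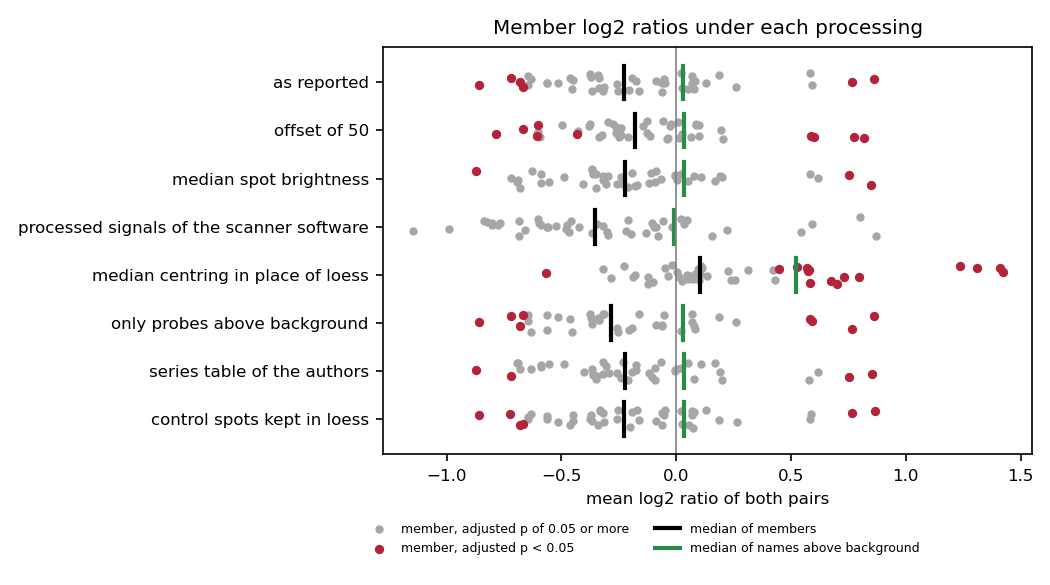
Mean log2 ratio of both pairs (x axis) of the members under each processing, with members at an adjusted p under 0.05 in red, the median of the members as a black bar and that of names above background as a green bar. The black bar lies left of the green bar in all 8 settings, while with median centring both lie above 0.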

How the data were processed

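Per the file headers, each scanner file is output of Agilent Feature Extraction 10.7.3.1 with probe positions on mm9, whereas the methods name another version of this software. The deposited intensity values are the mean or median brightness of each spot and its background in each channel, not normalized. The series table holds log2 ratios that the authors made by normexp (offset 16) and loess, and it correlated with the values used here at 0.961 and 0.953. The methods also mention a colour swap and a ComBat step, and the labels show 1 dye orientation.

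Mean spot brightness and median background were corrected by normexp with an offset of 16, and each array was centred by loess with control spots at weight 0, in R 4.3.3 with limma 3.58.1. Outlier spots were left out (194 in pair 1, 186 in pair 2) and spots of a probe were averaged. For each of 55676 probes the mean of its 2 log2 ratios was tested (limma's lmFit and eBayes, two-sided, Benjamini-Hochberg over all probes), which is a paired fit since each array is a littermate pair. The smallest p of an exact sign-flip test is 0.5 here, so calls rest on the moderated variance (prior SD 0.223, prior degrees of freedom 8.34), and the number of arrays limits the precision. The 95% intervals come from this fit. Log2 brightness per channel was taken after loess and Aquantile scaling. A probe counted as above background when at least 0.5 of its spots were well above background on both arrays, in 1 channel or more. No member was saturated.

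The members and lists were chosen with earlier results of these data known. Given in full were members with an adjusted p under 0.05 and the brightest of each role. Names are those of the array, and the accession of 45 of the 46 members gave the same symbol in RefSeq. The fit was run on data simulated from its own variance model, without dye or centring effects. Changes as small as those of the members called here were not simulated. Alternatives were another offset, median spot brightness, the scanner's processed signals, median centring, all probes of a gene, only probes above background, the series table and each pair alone. Keeping control spots in loess was added after seeing the data. The log10 ratios in the scanner files were not used.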

Additional observations from a re-analysis of the deposited data

How the results depend on the processing

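Every fit here is paired, because an array holds both littermates, and no unpaired fit of the single channels was run. The median of the 46 members was between -0.28 and -0.11 in single pairs, -0.36 with the scanner's processed signals and 0.11 with median centring, and it was between -0.29 and -0.18 under the other alternatives. As reported, 4 members were lower at an adjusted p under 0.05. Lower members numbered 1 with median spot brightness (Tk1), 2 with the series table (Rfc5 and Tk1) and 0 with processed signals. They numbered 1 with median centring (Pola2, which was not above background), 5 with an offset of 50 (Rpa2 added) and 4 with only probes above background. Names above background were called lower in 3.52% as reported, 2.61% with median spot brightness and 2.75% with the series table. That share was 1.34% with median centring, 7.81% with an offset of 50 and 4.31% with only probes above background. Higher members numbered 14 with median centring, 4 with an offset of 50, 4 with only probes above background and 0 with processed signals, against 2 as reported. Names above background were called higher in 6.93% as reported and in 56.2% with median centring. That share was 13.1% with an offset of 50 and 8.05% with only probes above background. With processed signals limma called no name above background in either direction, and at an unadjusted p under 0.05 it had 11 members lower and 4 higher. The share over all names at that threshold was not counted with processed signals. Median centring turned the sign of E2f2 (0.42), Gins3 (0.57), Mcm6 (0.024), Pcna (0.57) and Prim1 (0.24), and the cause was not tested. Over all probes of a gene, the log2 ratio moved to -0.37 for Pole and 0.51 for Chaf1b. No member was past a log2 ratio of 1.5 under any setting of a fit on both pairs. Keeping control spots in loess, an alternative chosen after seeing the data, left 4 lower and 2 higher. Signal over background limits 6 members, which were not above background on both arrays.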
